A study of Homo sapiens with 12 samples.

Results

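The 43 genes described here encode the enzymes that write methyl groups on histone lysines and the subunits of the Polycomb complexes. The rule that chose them names symbols by function and uses no measured value, although the list was drawn up with earlier results of these data known. They were looked up by gene identifier among the 60675 genes counted in each library. They comprised 10 genes of Polycomb repressive complex 2 (PRC2), 12 of Polycomb repressive complex 1 (PRC1), 6 methyltransferases of histone H3 lysine 9 (H3K9), 6 of H3K4, 6 of H3K36 and 3 of H4K20 or H3K79. All 43 passed the filter on low counts in every comparison, so no member was lost to depth.

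The study asked how inhibition of 2 histone demethylases changes the transcriptome of androgen-treated prostate cancer cells, and RNA-seq was performed on 12 libraries in 6 groups of 2. C4-2 cells, a castration-resistant line derived from LNCaP, received the synthetic androgen R1881 alone, R1881 with namoline, R1881 with TCE-5002, or R1881 with both inhibitors (the combination). LNCaP cells, a human prostate cancer line that depends on androgen, received R1881 alone or R1881 with both inhibitors. Every group, controls included, was given R1881 at 1 nM for 72 h. Namoline, a KDM1A-selective inhibitor, was used at 50 µM. TCE-5002, a KDM7A-selective inhibitor that also acts on related demethylases, was used at 100 µM according to the series design, whereas the methods of the study name a lower concentration, so its dose is uncertain. No library without androgen was analysed here, and each line is a single cell line.

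Libraries held between 14791602 and 20690819 counted read pairs. Replicates of a group correlated at Pearson r of 0.9875 to 0.994 across 15606 genes but differed by more than counting noise (chi-square per degree of freedom of 3.34 in the C4-2 combination group to 24.8 in the C4-2 TCE-5002 group), and none was a duplicate. The libraries labelled LNCaP stood apart from those of C4-2 in line markers. VIM (vimentin), a mesenchymal marker, was at 652 and 735 CPM (counts scaled to library size) in the R1881 libraries labelled LNCaP and at 2.62 and 2.24 CPM in those of C4-2, and CDH1 (E-cadherin) was at 45.3 and 39.7 against 948 and 990 CPM. The 12 luminal prostate markers summed to 956 and 870 CPM against 3990 and 4090 CPM, the 6 mesenchymal markers to 886 and 967 against 32.1 and 32.6 CPM, and the 3 basal markers to at most 0.42 CPM in any library. In addition, the name inside one of the libraries labelled LNCaP combination (replicate 1) carries namoline but not TCE-5002. The labels were followed throughout, the words "labelled LNCaP" were kept, and the results of that line are given with and without this library. Although C4-2 derives from LNCaP, the summed luminal markers were lower and the mesenchymal ones far higher in the libraries labelled LNCaP. Whether those cells are LNCaP was not tested, so differences between lines are between libraries as labelled.

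Methyl groups on histone tails mark chromatin states. PRC2, with EZH1 or EZH2 as its catalytic subunit beside EED, SUZ12 and RBBP4 or RBBP7, methylates H3K27, and its accessory subunits (JARID2, MTF2, PHF1, PHF19) help to place it on chromatin. PRC1 ubiquitinates H2A through RING1 or RNF2 (RING1A and RING1B). Its canonical forms read H3K27 methylation through a CBX protein, and its PCGF subunit defines each variant complex. H3K9 methylation marks heterochromatin, H3K4 methylation marks promoters and enhancers, and H3K36 and H3K79 methylation mark transcribed genes. KDM1A and the KDM7 family remove some of these marks, H3K4 and H3K9 methylation by KDM1A and H3K9 and H3K27 methylation by KDM7A, so writers and erasers act on shared residues. EZH2 is known for its high level in advanced prostate cancer.

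Promoter sequence was examined in windows from 250 bases before to 50 bases after each RefSeq gene start (GRCh38.p14), which were at hand for 39 of the 43 genes. CBX2, CBX8, DOT1L and NSD3 had no entry. E2F-type letters (TTTCCCGC, TTTGGCGC, TTTCGCGC or TTTGCCGC on either strand), a form bound by the E2F factors of the cell cycle, were present in 6 of the 39 genes (15.4%), against 3.99% of 27305 genes. Of the 10 PRC2 genes, 5 carried them (50.0%), and NSD2 was the remaining member. The 30 bases around each match are shown in lower case with the matching letters in capitals, since these members share the letters with many of the DNA replication genes described further on. The matches were at chr17:42745137-42745166 (EZH1, minus strand), chr7:148884272-148884301 (EZH2, minus strand), chr17:31936807-31936836 (SUZ12, plus strand), chr1:93079277-93079306 (MTF2, plus strand), chr9:120877322-120877351 (PHF19, minus strand) and chr4:1871305-1871334 (NSD2, plus strand).
EZH1: gcggggttttgGCGGCAAAtgacagtagtg
EZH2: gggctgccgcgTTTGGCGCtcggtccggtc
SUZ12: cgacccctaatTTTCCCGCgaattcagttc
MTF2: accggcagtccGCGGGAAAccaaaatggcg
PHF19: gtcaataattcGCGGGAAAacgcgaaaaag
NSD2: cggcgcgcactTTTCCCGCggcttctgcga
Among 17 genes of a DNA replication list with a promoter entry, 12 carried E2F-type letters (70.6%). The letters TTTGAA (either strand), found in the cell cycle homology region of mitotic genes, were in 5 of the 39 members (12.8%), 18.2% of all genes and 64.7% of the mitosis list. A match is a description of the sequence only.

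The paralogues EZH1 and EZH2 responded differently to the inhibitors, and the 250 bases before a start of each are shown, with the E2F-type match of EZH1 in capitals. The match of EZH2, shown above, begins just past the end of its stretch. Whether these letters bear on the responses was not tested. The stretches lie at chr17:42745041-42745290 and chr7:148884292-148884541, both on the minus strand of GRCh38.p14, and 67.6% and 75.6% of their bases are G or C. A further start of EZH2, with its 250 bases at chr7:148883486-148883735 (79.6% G or C), is not shown.
EZH1: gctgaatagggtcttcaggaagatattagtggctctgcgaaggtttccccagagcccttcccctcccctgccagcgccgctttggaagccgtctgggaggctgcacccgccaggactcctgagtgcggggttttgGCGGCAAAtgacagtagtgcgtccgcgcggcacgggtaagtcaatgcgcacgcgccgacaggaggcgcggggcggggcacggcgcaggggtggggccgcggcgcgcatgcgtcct
EZH2: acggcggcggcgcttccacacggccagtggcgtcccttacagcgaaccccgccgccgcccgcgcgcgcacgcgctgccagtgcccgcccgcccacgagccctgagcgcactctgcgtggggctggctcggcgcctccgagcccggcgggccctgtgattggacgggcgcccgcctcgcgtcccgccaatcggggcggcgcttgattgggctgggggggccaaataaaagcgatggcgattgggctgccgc

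In C4-2, 18 of the 43 genes changed with namoline, 17 with TCE-5002 and 25 with the combination, in both directions and, as over all genes, most often with the combination. Differences were tested with the quasi-likelihood F test of edgeR, with p-values adjusted by Benjamini-Hochberg across every gene in the fit. A gene is said to have passed at an adjusted p under 0.05, and to be past 2-fold where its absolute log2 fold change was also at least 1. Errors are standard errors of the log2 fold change, n is 2 libraries a group, and all CPM values are scaled by TMM over the 12 libraries. With namoline, 11 members rose and 7 fell (of 17702 genes tested, 18.7% rose and 16.3% fell), and with TCE-5002, 6 rose and 11 fell (19.9% and 16.7% of all genes). With the combination, 15 rose and 10 fell (24.8% and 25.6% of all genes). Members past 2-fold were 2 with namoline, 1 with TCE-5002 and 6 with the combination, where 12.1%, 11.8% and 21.7% of all genes were past 2-fold. The median log2 fold change of the 43 was -0.02, -0.01 and 0.09, close to the medians of all genes (0, 0 and -0.03).

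The count of members that passed with a single inhibitor rested on each library. It was 7 to 24 for namoline and 5 to 22 for TCE-5002 as each library of the fit was left out in turn, and it was lowest without replicate 1 of C4-2 R1881 in both (7 and 5). It was also 8 and 10 without replicate 2 of C4-2 R1881, and for namoline 11 and 7 without its replicate 1 and its replicate 2. The combination count fell to 16 without its replicate 2. The 6 members past 2-fold with the combination (EZH1, JARID2, PHF1, PCGF1, NSD3 and SMYD2) remained so in every alternative. The namoline calls of EZH1, EED, RBBP4 and KMT2A were lost on leaving out either C4-2 replicate of R1881, namoline or the combination. That of PHF19 was lost without either R1881 replicate, namoline replicate 2 or combination replicate 2.

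**Figure D1:**
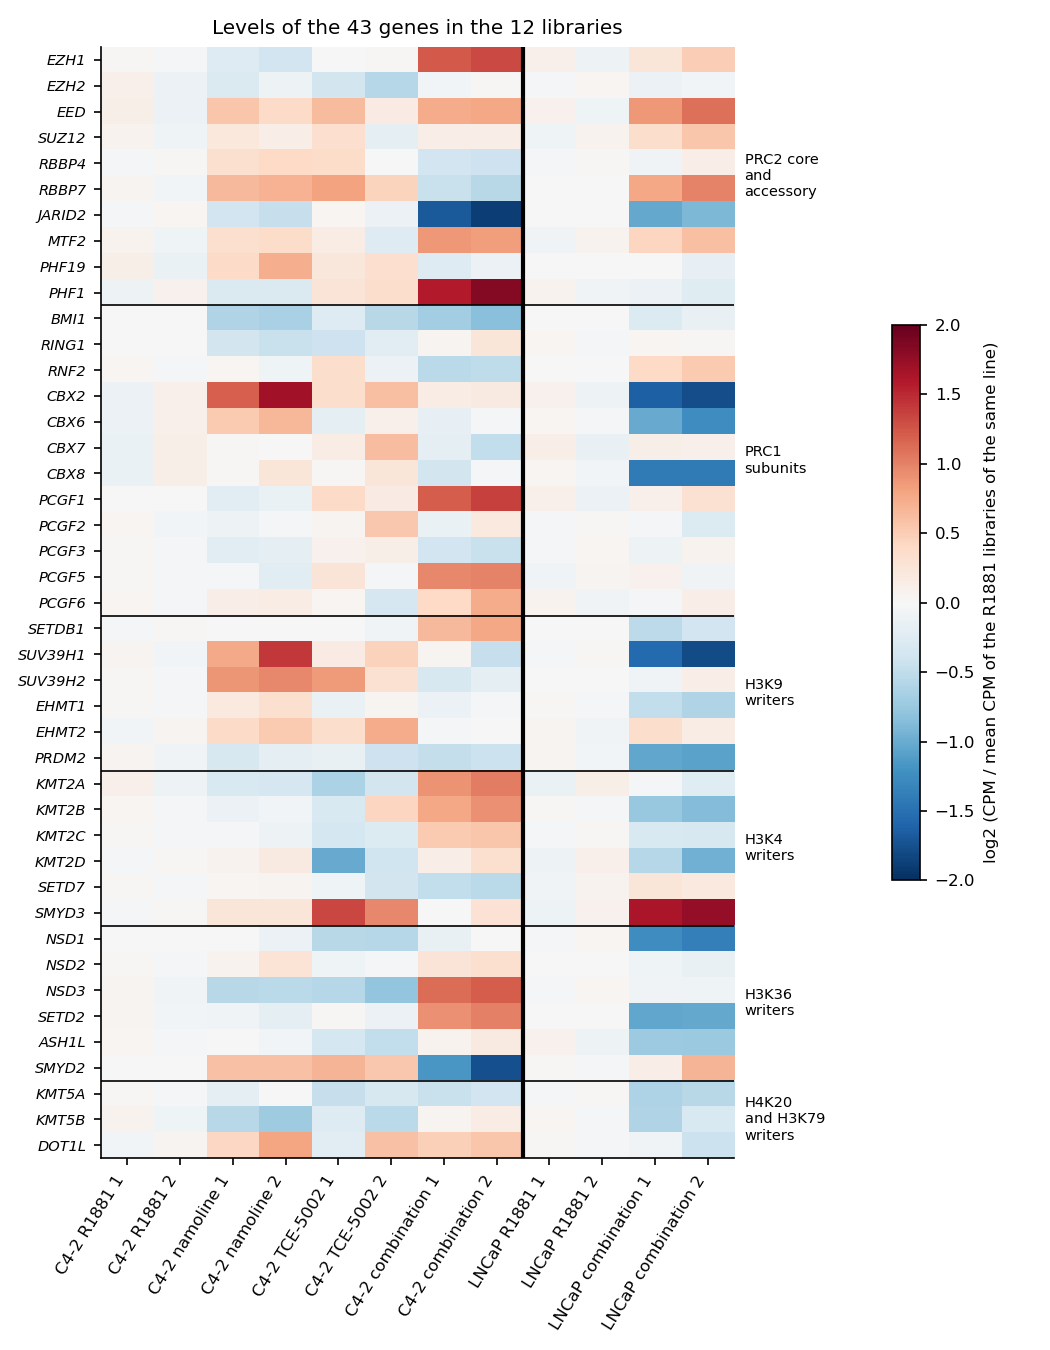
Level of each of the 43 genes (rows, grouped by role) in each of the 12 libraries (columns), as log2 of CPM over the mean CPM of the R1881 libraries of the same line, from blue (lower) to red (higher), with the scale ending at -2 and 2. EZH1, PHF1, PCGF1 and NSD3 are red and JARID2 and SMYD2 blue in both C4-2 combination libraries, and CBX2 is red with namoline in C4-2 and blue with both inhibitors in the libraries labelled LNCaP.

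The PRC2 genes moved in both directions. In C4-2, 4 of 10 rose and 2 fell with namoline, 1 rose and 1 fell with TCE-5002, and 4 rose and 3 fell with the combination. The catalytic paralogues parted. EZH1, the catalytic subunit typical of non-dividing cells, was at 42.4 and 40.6 CPM with R1881, 34.8 and 31.8 CPM with namoline, 41.9 and 42 CPM with TCE-5002, and 97.3 and 104 CPM with the combination. Both combination libraries were thus above all 6 others. EZH1 rose by 1.26 ± 0.11 (log2, adjusted p = 9.2e-07) with the combination and fell by 0.34 ± 0.12 with namoline (adjusted p = 0.0345), while its difference with TCE-5002 was -0.01 ± 0.11. The namoline call was among those lost above as single libraries were left out. EZH2, the catalytic subunit typical of dividing cells, was at 99.8 and 86.2 CPM with R1881, 75.8 and 86.5 CPM with namoline, 72.4 and 62.5 CPM with TCE-5002, and 89.7 and 94.2 CPM with the combination. It fell by 0.49 ± 0.12 with TCE-5002 (adjusted p = 0.00578), and its difference with the combination was -0.03 ± 0.12, with the replicates of R1881 and combination overlapping. Levels per kilobase here use the length of all annotated exons of a gene, not of a transcript, and comparisons between genes depend on it. On this scale, EZH1 made up 21.6% and 23.4% of the EZH1 and EZH2 level in the R1881 libraries and 41.2% and 41.6% in the combination libraries.

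The accessory subunits that recruit PRC2 also moved apart. JARID2, which couples PRC2 to chromatin and stimulates it, was at 37.9 and 40.0 CPM with R1881, 30.0 and 28.3 CPM with namoline, 39.9 and 35.9 CPM with TCE-5002, and 12.2 and 10.6 CPM with the combination. Its combination libraries were the lowest of the 8, and it fell by 1.78 ± 0.14 (adjusted p = 2.61e-07). PHF1, a Polycomb-like subunit that binds methylated H3K36, was at 39.7 and 45.1 CPM with R1881, 34.5 CPM in both namoline libraries, 50.7 and 53.8 CPM with TCE-5002, and 128 and 151 CPM with the combination. The combination thus raised it above every other library, by 1.70 ± 0.12 (adjusted p = 1.1e-07). MTF2, a further Polycomb-like subunit, rose by 0.84 ± 0.14 with the combination (adjusted p = 0.000204), from 28.8 and 25.9 to 50.0 and 48.6 CPM. PHF19, the remaining Polycomb-like subunit, rose by 0.53 ± 0.18 with namoline (adjusted p = 0.0282), and its difference with the combination was -0.20 ± 0.18.

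Among the core subunits, EED, which binds trimethylated H3K27, rose with namoline (0.45 ± 0.16) and with the combination (0.74 ± 0.16, adjusted p = 0.00146). SUZ12, the scaffold of the complex, passed no C4-2 test against R1881, with differences of 0.15, 0.08 and 0.12. RBBP7, a histone-binding subunit shared with other complexes, was at 90.7 and 84.8 CPM with R1881, 138 and 143 CPM with namoline, 153 and 119 CPM with TCE-5002, and 64.4 and 60.0 CPM with the combination. It was higher than the R1881 libraries with either inhibitor alone and lower with both. The change was 0.66 ± 0.12, 0.61 ± 0.12 and -0.51 ± 0.13, each passed (adjusted p = 0.000942, 0.00151 and 0.00378). Its paralogue RBBP4 rose by 0.34 ± 0.12 with namoline and fell by 0.41 ± 0.12 with the combination (adjusted p = 0.0402 and 0.012).

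**Figure D2:**
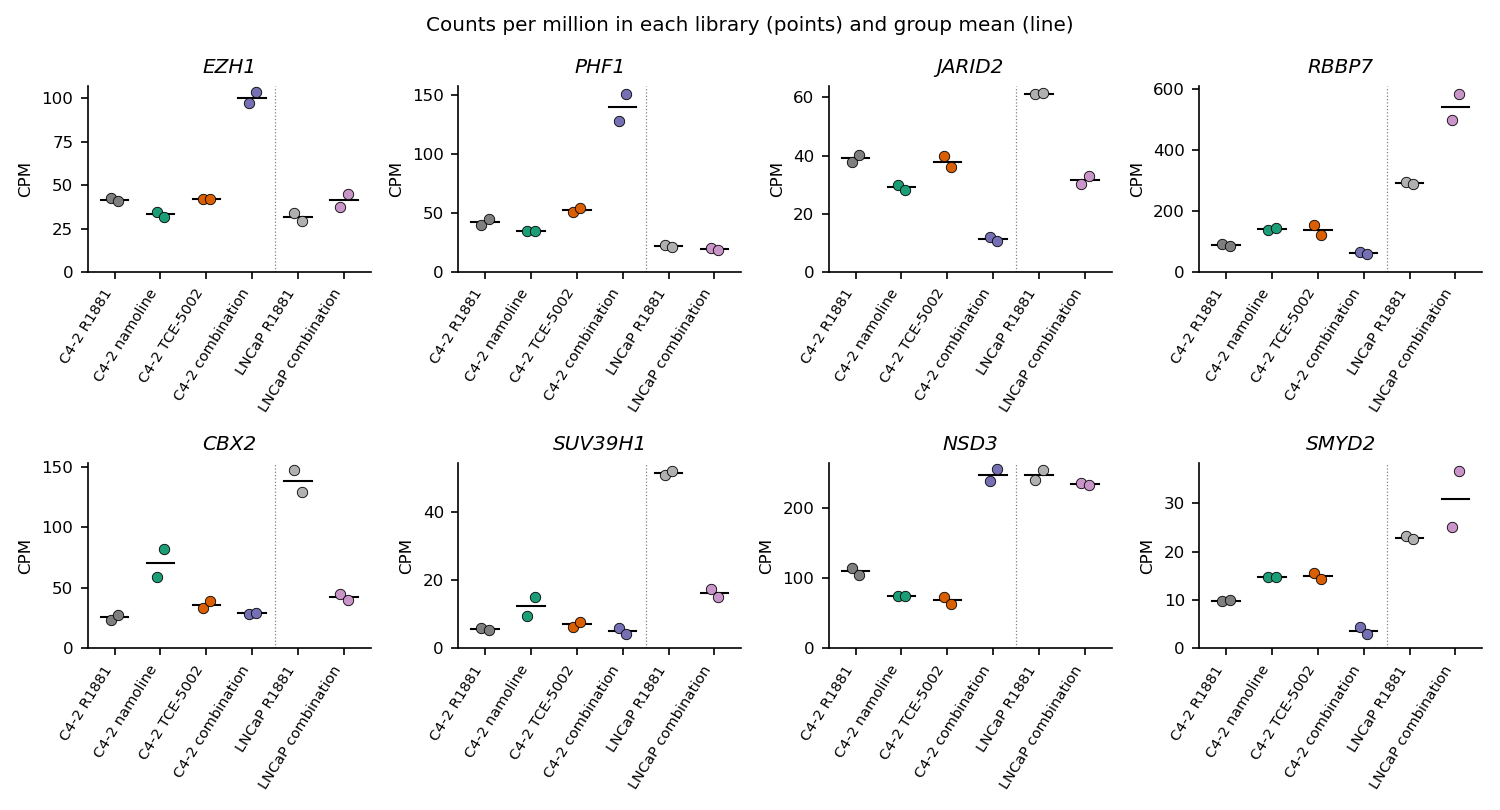
CPM (vertical axes, starting at 0) of 8 members in each of the 12 libraries (points) with the mean of each group of 2 (lines). The C4-2 combination libraries are the highest C4-2 libraries for EZH1, PHF1 and NSD3 and the lowest for JARID2, RBBP7 and SMYD2, and the libraries labelled LNCaP start from a higher level of CBX2, SUV39H1 and RBBP7.

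Of the PRC1 genes, CBX2 was past 2-fold with namoline and PCGF1 with the combination. With namoline 2 of the 12 rose and 2 fell, with TCE-5002 1 rose and 2 fell, and with the combination 3 rose and 3 fell. CBX2, a chromodomain subunit of canonical PRC1 that compacts chromatin, was at 23.8 and 27.8 CPM with R1881, 59.4 and 82.4 CPM with namoline, 33.1 and 39.1 CPM with TCE-5002, and 28.7 and 29.2 CPM with the combination. The namoline libraries stood above all others, and the combination libraries lay just above those of R1881. CBX2 rose by 1.44 ± 0.16 with namoline (adjusted p = 1.04e-05) and by 0.47 ± 0.16 with TCE-5002 (adjusted p = 0.0336), and the combination difference was 0.16 ± 0.16 (adjusted p = 0.443). CBX6 also rose with namoline (0.58 ± 0.13, adjusted p = 0.00268), from 143 and 165 to 222 and 245 CPM, whereas CBX7 and CBX8 passed no C4-2 test against R1881. Per kilobase, CBX2 made up 12.3% and 12.2% of the level of the 4 CBX members with R1881 and 20.2% and 24.1% with namoline.

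The PCGF subunits, which define the PRC1 variants, changed mainly with the combination. PCGF1, of the variant PRC1 that holds KDM2B, was at 10.9 and 11.1 CPM with R1881, 9.46 and 10.1 CPM with namoline, 14.4 and 12.3 CPM with TCE-5002, and 25.4 and 28.4 CPM with the combination, where it rose by 1.27 ± 0.15 (adjusted p = 8.66e-06). PCGF5, of a variant complex that can activate transcription, rose by 0.96 ± 0.12 (adjusted p = 1.82e-05), from 71.3 and 69.0 to 137 and 140 CPM. PCGF6 rose by 0.56 ± 0.17 and PCGF3 fell by 0.43 ± 0.11 (adjusted p = 0.012 and 0.00397). None of these 4 passed with an inhibitor alone. BMI1, the PCGF subunit of canonical PRC1 known as a regulator of stem cell self-renewal, fell in all 3 treatments, by 0.65 ± 0.12, 0.42 ± 0.12 and 0.77 ± 0.12, and was at 97.9 and 98.4 CPM with R1881 against 60.7 and 55.0 CPM with the combination. PCGF2 passed no C4-2 test against R1881, and 32.7% of its exon bases are shared with CISD3 on the opposite strand, which counting without strand cannot separate. Of the E3 ligases, RING1 fell with each inhibitor alone (by 0.43 ± 0.12 and 0.33 ± 0.12), and RNF2 fell with the combination (by 0.54 ± 0.15, adjusted p = 0.0099).

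**Figure D3:**
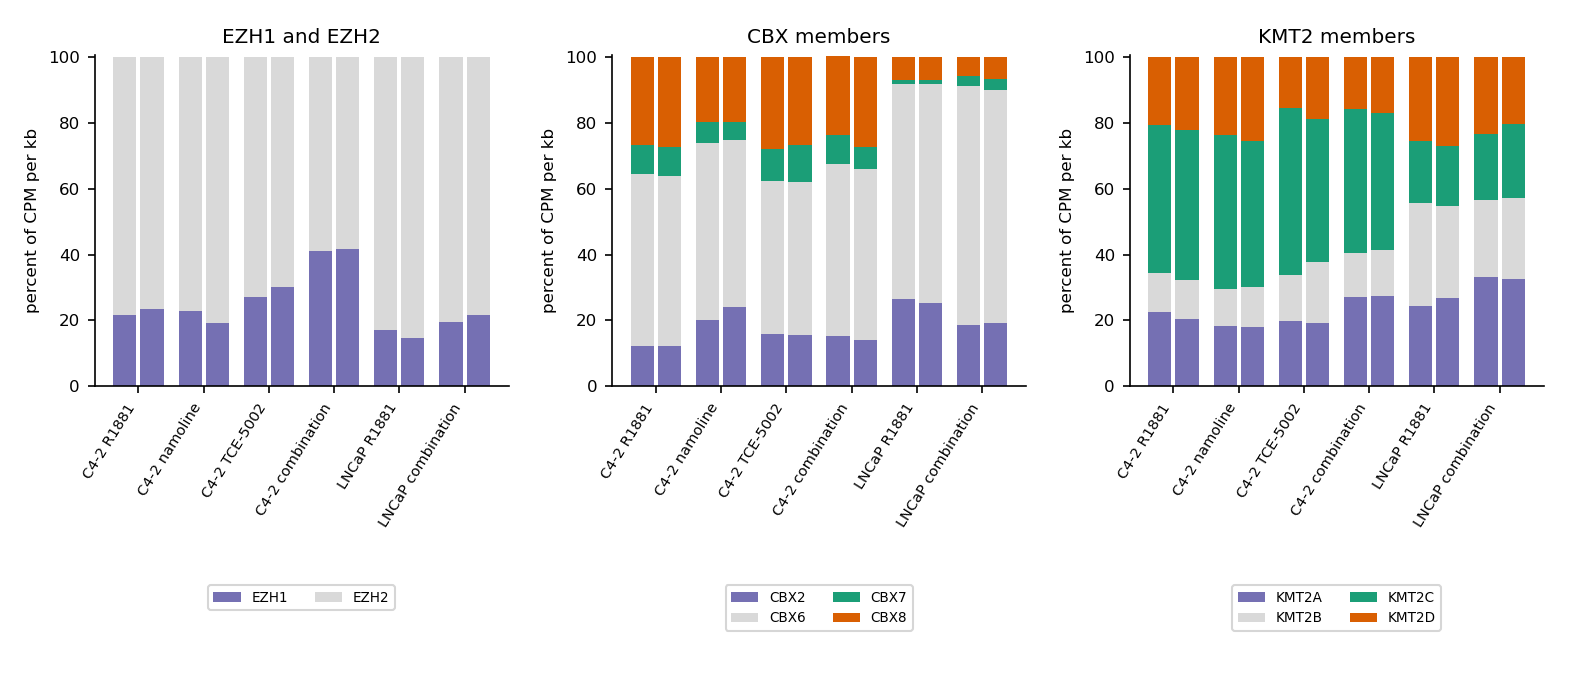
Percent of the summed CPM per kilobase held by each paralogue in each of the 12 libraries (bars, 2 a group) for EZH1 and EZH2, 4 CBX members and 4 KMT2 members. EZH1 takes 41.2% and 41.6% in the C4-2 combination libraries against 21.6% and 23.4% with R1881, and KMT2C takes 45.0% and 45.5% in C4-2 R1881 libraries against 19.0% and 18.2% in those labelled LNCaP.

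Among the H3K9 writers, 3 of 6 rose with namoline, 2 rose with TCE-5002, and 1 rose and 1 fell with the combination. SUV39H1, which trimethylates H3K9 in pericentric heterochromatin, was at 5.89 and 5.50 CPM with R1881, 9.64 and 15.2 CPM with namoline, 6.36 and 7.81 CPM with TCE-5002, and 5.92 and 4.16 CPM with the combination. It rose by 1.09 ± 0.24 with namoline (adjusted p = 0.00257), a call that namoline replicate 2 decided, since the change was 0.73 with an adjusted p of 0.069824 without it. Its paralogue SUV39H2 was at 18.4 and 17.8 CPM with R1881, 33.3 and 35.3 CPM with namoline, 32.8 and 22.3 CPM with TCE-5002, and 14.5 and 15.9 CPM with the combination. Every library with a single inhibitor was above, and both combination libraries below, those of R1881, with changes of 0.90 ± 0.16, 0.58 ± 0.16 and -0.27 ± 0.17, of which the last did not pass (adjusted p = 0.201). EHMT2 (G9a), the main H3K9 dimethyltransferase of euchromatin, rose with each inhibitor alone by 0.43 ± 0.13 and 0.54 ± 0.13, and its partner EHMT1 passed no C4-2 test against R1881. SETDB1, which silences repeats with KAP1, rose by 0.70 ± 0.11 with the combination (adjusted p = 0.000116), from 51.7 and 53.8 to 82.9 and 90.1 CPM, and shares 13.4% of its exon bases with CERS2 on the opposite strand. PRDM2 fell by 0.47 ± 0.12 (adjusted p = 0.00564).

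Among the H3K4 writers, KMT2A and KMT2C fell with TCE-5002 and rose with the combination. With namoline 1 of 6 fell, with TCE-5002 1 rose and 3 fell, and with the combination 3 rose and 1 fell. KMT2A, KMT2B and KMT2C rose with the combination while TCE-5002 alone lowered KMT2A, KMT2C and KMT2D. KMT2A (MLL1), which maintains H3K4 methylation at HOX and other promoters, was at 204 and 178 CPM with R1881, 154 and 151 CPM with namoline, 123 and 148 CPM with TCE-5002, and 357 and 390 CPM with the combination. It was lower than the R1881 libraries with either inhibitor and higher than all with both, with changes of -0.35 ± 0.12, -0.51 ± 0.12 and 0.95 ± 0.12, each passed. KMT2B, its paralogue, rose by 0.83 ± 0.18 (adjusted p = 0.00142), from 50.2 and 48.0 to 83.9 and 92.4 CPM. KMT2C, an enhancer H3K4 monomethyltransferase, rose by 0.52 ± 0.11 with the combination and fell by 0.33 ± 0.11 with TCE-5002 (adjusted p = 0.000869 and 0.0228). KMT2D, its partner at enhancers, was at 174 and 181 CPM with R1881 and at 88.7 and 135 CPM with TCE-5002, where it fell by 0.68 ± 0.16 (adjusted p = 0.00391) with replicates that were far apart, as were those of KMT2B (39.9 and 66.4 CPM). SMYD3, which methylates H3K4 and cytoplasmic kinases, was at 19.7 and 20.2 CPM with R1881, 23.6 and 23.7 CPM with namoline, 50.4 and 39.0 CPM with TCE-5002, and 19.8 and 24.4 CPM with the combination. It was the only member past 2-fold with TCE-5002 (1.14 ± 0.15, adjusted p = 5.13e-05), and its change was 0.95 without TCE-5002 replicate 1. SETD7, which monomethylates H3K4 and other proteins, fell by 0.53 ± 0.11 with the combination (adjusted p = 0.00142).

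Of the 6 H3K36 writers, 1 rose and 1 fell with namoline, 1 rose and 3 fell with TCE-5002, and 3 rose and 1 fell with the combination. NSD3, which dimethylates H3K36 and is known as an oncogene in several cancers, was at 114 and 105 CPM with R1881, 74.6 and 75.1 CPM with namoline, 73.8 and 63.4 CPM with TCE-5002, and 237 and 254 CPM with the combination. Each inhibitor alone lowered it (by 0.57 ± 0.11 and 0.70 ± 0.11), and both together raised it by 1.15 ± 0.11 (adjusted p = 1.54e-06). SETD2, the enzyme that trimethylates H3K36 and a tumour suppressor, passed with neither inhibitor alone (-0.15 and -0.07) and rose by 0.95 ± 0.11 with the combination (adjusted p = 8.92e-06), from 80.7 and 74.6 to 146 and 156 CPM. NSD1 and ASH1L, which dimethylate H3K36, fell with TCE-5002 by 0.59 ± 0.11 and 0.45 ± 0.11, and their combination differences were -0.09 and 0.11. NSD2, a further H3K36 enzyme that is raised in metastatic prostate cancer, rose by 0.28 ± 0.11 with the combination (adjusted p = 0.0421). SMYD2, which methylates H3K36 and p53, was at 9.73 and 9.92 CPM with R1881, 14.7 CPM in both namoline libraries, 15.7 and 14.3 CPM with TCE-5002, and 4.37 and 2.92 CPM with the combination. The libraries with a single inhibitor lay above, and those with the combination below, both R1881 libraries. The changes were 0.56 ± 0.18, 0.59 ± 0.18 and -1.43 ± 0.20, each passed (adjusted p = 0.0247, 0.0186 and 5.16e-05).

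Of the H4K20 and H3K79 writers, KMT5A, the monomethyltransferase of H4K20, fell with TCE-5002 and with the combination (by 0.41 ± 0.11 and 0.43 ± 0.11). KMT5B, which adds the further methyl groups to H4K20, was at 145 and 130 CPM with R1881, 93.4 and 84.3 CPM with namoline, 116 and 94.9 CPM with TCE-5002, and 143 and 153 CPM with the combination. It fell with namoline and with TCE-5002 (by 0.65 ± 0.12 and 0.41 ± 0.12, adjusted p = 0.000816 and 0.0158), and its combination difference was 0.09 ± 0.12. DOT1L, the H3K79 methyltransferase, rose with namoline by 0.59 ± 0.20 (adjusted p = 0.0339) and with the combination by 0.50 ± 0.20, where its adjusted p of 0.05 lay just inside the threshold.

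Whether the combination differed from the sum of the inhibitors was tested as an interaction, which compares the log2 effect of both with the added effects of each. Of the 43 members, 18 had a positive and 13 a negative interaction that passed (25.6% and 27.9% of all genes), and 15 were past 2-fold (35.3% of all genes). The median interaction of the members was 0.10, against -0.01 over all genes. The largest positive values were those of NSD3 (2.42 ± 0.16, adjusted p = 2.33e-08), KMT2A (1.81 ± 0.17), PHF1 (1.74 ± 0.17) and EZH1 (1.61 ± 0.16). The largest negative values were those of SMYD2 (-2.58 ± 0.27, adjusted p = 1.86e-06), RBBP7 (-1.78 ± 0.18), CBX2 and SUV39H2 (-1.75 each) and SUV39H1 (-1.57 ± 0.34). JARID2 (-1.28 ± 0.19), PCGF1 (1.21 ± 0.21), SETD2 (1.16 ± 0.16), KMT5B (1.15 ± 0.17), PCGF5 (1.01 ± 0.17) and SMYD3 (-1.23 ± 0.21) made up the remaining members past 2-fold. The 2 effects did not add up on the log2 scale in 31 of the 43 members.

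In 4 of the 43 members, both inhibitors alone moved the gene one way and the combination the other, as they did in 4.18% of all genes. RBBP7 and SMYD2 rose with each inhibitor and fell with both, and KMT2A and NSD3 fell with each and rose with both. Leaving out each C4-2 library in turn, a count added after the data were seen, left 2 to 5 such members. It left 2 without either replicate of R1881 or of namoline (RBBP7 and NSD3) and without combination replicate 2 (NSD3 and SMYD2), and NSD3 was among them each time. A further 13 members passed with the combination and with neither inhibitor alone (22.6% of all genes did). As each C4-2 library was left out, 7 to 17 did so. They were fewest without TCE-5002 replicate 1 and replicate 2 (7 and 8) and most without R1881 replicate 2 (17). Among the 13 were PHF1, PCGF1, PCGF5, SETDB1, KMT2B and SETD2, of which PHF1 and KMT2B were lost on leaving out either TCE-5002 replicate. Set directly against namoline, the combination changed 28 of the 43 members (14 higher, 14 lower, where 55.9% of all genes passed), 13 of them past 2-fold (27.5% of all genes). PHF1 was higher by 2.02 ± 0.12, NSD3 by 1.72 ± 0.11 and EZH1 by 1.60 ± 0.12, and SMYD2 fell by 1.99 ± 0.20, JARID2 by 1.34 ± 0.14 and CBX2 by 1.28 ± 0.16. Against TCE-5002, it changed 32 members (19 higher, 13 lower, where 55.1% of all genes passed), 10 past 2-fold (26.1% of all genes). NSD3 was higher by 1.85 ± 0.11 and KMT2A by 1.47 ± 0.12, and SMYD2 fell by 2.02 ± 0.20, JARID2 by 1.72 ± 0.14 and SMYD3 by 1.01 ± 0.15. These comparisons share libraries with those against R1881, so they are not separate evidence.

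Several members are known to follow the cell cycle, so the levels of a DNA replication list and a mitosis list, 20 genes each, were set beside them. With namoline, 20 of 20 replication genes rose (median log2 change 1.97), CCNE2 by 3.17 ± 0.22, E2F1 by 2.58 ± 0.19 and CDC6 by 2.35 ± 0.17. With TCE-5002, 18 rose (median 1.05), and with the combination, 11 rose (median 0.43). Their summed level was 452 and 436 CPM with R1881, 1520 and 1960 CPM with namoline, 905 and 851 CPM with TCE-5002, and 669 and 617 CPM with the combination. By group mean, namoline was highest and TCE-5002 next for this list, as for CBX2, SUV39H1, SUV39H2, RBBP4, RBBP7 and PHF19, among others. The combination was above R1881 for the list and CBX2, and below it for the other members just named. Further members had other orders, as EZH2 was highest with R1881, and EZH1, MTF2 and EED with the combination. Of the mitosis list, 4 rose and 4 fell with namoline, 1 rose and 18 fell with TCE-5002 (median -1.33), and 19 fell with the combination (median -1.72), PLK1 by 2.22 ± 0.23. Its summed level was 1610 and 1260 CPM with R1881, 1340 and 1740 CPM with namoline, 637 and 576 CPM with TCE-5002, and 508 and 390 CPM with the combination. Of the 6 members past 2-fold with the combination, EZH1, PHF1, NSD3 and PCGF1 rose and JARID2 and SMYD2 fell in the C4-2 libraries with the lowest mitotic level. With TCE-5002 alone, where 18 mitosis genes fell, EZH1, PHF1, PCGF1 and JARID2 did not pass, NSD3 fell and SMYD2 rose. The part of the mix of cell cycle phases in the changes of the members was not tested, and in these bulk libraries fewer cells of a kind and less RNA per cell cannot be told apart. Of the 6 members with E2F-type letters in the promoter, PHF19 rose, EZH1 fell and the other 4 (EZH2, SUZ12, MTF2 and NSD2) did not pass with namoline. The calls of PHF19 and EZH1 were lost as single libraries were left out, as given above.

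In the libraries labelled LNCaP, the combination raised 10 of the 43 members and lowered 16 (of 17565 genes tested, 28.0% rose and 28.2% fell), and 8 were past 2-fold (18.7% of all genes). The median log2 change of the members was -0.05. Without replicate 1 of the combination, whose inner name lacks TCE-5002, 25 passed, of which 23 were among the 26 (EHMT2, SETD7 and KMT5B were lost, PCGF1 and DOT1L were gained), and 9 were past 2-fold, the 8 and RBBP7. The lone library left in the group is then assumed to vary like the controls. Without replicate 2, 5 were past 2-fold, as EED, CBX6 and PRDM2 fell below.

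Of the 4 CBX members, 3 fell past 2-fold in these libraries. CBX2 was at 147 and 129 CPM with R1881 and at 44.6 and 40.3 CPM with the combination, and fell by 1.64 ± 0.11 (adjusted p = 8.53e-14). CBX8 fell by 1.36 ± 0.15 (adjusted p = 1.75e-09), from 28.3 and 26.6 CPM to 10.3 CPM in both libraries, and CBX6 by 1.06 ± 0.11 (adjusted p = 1.03e-09), from 509 and 481 to 246 and 208 CPM. CBX7, at 9.19 and 7.59 against 9.10 and 8.98 CPM, did not pass (0.17 ± 0.19). SUV39H1 fell by 1.61 ± 0.13 (adjusted p = 4.51e-12), from 50.9 and 52.1 to 17.5 and 15.0 CPM. NSD1, at 580 and 615 against 253 and 231 CPM, fell by 1.24 ± 0.11 (adjusted p = 3.2e-11), and PRDM2 fell by 1.00 ± 0.12 (adjusted p = 9.46e-09), from 63.7 and 59.1 to 29.7 and 29.1 CPM. Opposite to these, SMYD3 rose by 1.76 ± 0.17 (adjusted p = 1.34e-10), from 5.78 and 6.58 to 19.1 and 21.0 CPM, and EED by 1.06 ± 0.12 (adjusted p = 7.34e-09), from 29.3 and 26.1 to 50.7 and 59.6 CPM. Beside EED, the PRC2 genes RBBP7 (0.95 ± 0.11), MTF2 (0.58 ± 0.11), SUZ12 (0.51 ± 0.11) and EZH1 (0.44 ± 0.12) rose and JARID2 fell by 0.90 ± 0.12, so that 5 of the 10 rose and 1 fell. Of the H3K9 writers 1 rose and 4 fell, of the H3K4 writers 2 rose and 3 fell, and of the H3K36 writers 1 rose and 3 fell. The summed replication level was 3720 and 3750 CPM with R1881 and 3830 and 3760 CPM with the combination, and the mitosis level 3270 and 3840 against 3550 and 4010 CPM, so the sums differed between the treatments by about as much as the replicates did, although 9 replication genes rose and 6 fell, and 10 mitosis genes rose and 3 fell.

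The response of the lines was compared by an interaction of line and combination. It passed for 35 members, with C4-2 higher in 22 and lower in 13 (21.7% and 25.9% of 19763 genes), and was past 2-fold in 13 (25.3% of all genes). The median difference of the members was 0.35, against -0.1 over all genes tested. Of the 43 members, 25 passed in C4-2, 26 in the libraries labelled LNCaP and 14 in both. The 14 are 56.0% of the 25 and 53.8% of the 26. Over all genes, 8911 passed in C4-2, 9877 in the libraries labelled LNCaP and 4726 in both. Of the 15283 genes tested in both lines, passed or not, 17.4% passed in both in one direction and 13.5% in opposite directions. Those 2 percentages are not shares of the genes that passed, so they cannot be set beside the 56.0% and 53.8%. Of the 14 members, 6 changed in one direction, with EZH1, EED and MTF2 higher and JARID2, PRDM2 and KMT5A lower in both. The other 8 changed in opposite directions. SETDB1, KMT2B, KMT2C and SETD2 rose in C4-2 and fell in the libraries labelled LNCaP, whereas RBBP7, RNF2, SETD7 and SMYD2 did the reverse. SETD2 differed most in the first direction, as it rose from 80.7 and 74.6 to 146 and 156 CPM in C4-2 and fell from 292 and 297 to 144 CPM in both of the others (difference 1.87 ± 0.12, adjusted p = 1.21e-11). SMYD2 differed most in the other (-1.98 ± 0.26, adjusted p = 1.05e-06), from 23.2 and 22.5 to 25.1 and 36.8 CPM in the libraries labelled LNCaP. Its rise there was lost without combination replicate 2. The fall of KMT2C was lost without that library or either R1881 replicate, and the rise of SETD7 without replicate 1 of either group. The rise of EZH1 there was lost without R1881 replicate 2. In C4-2, RBBP7 was lost without combination replicate 2. RNF2, PRDM2 and KMT5A were lost there without either combination replicate or R1881 replicate 1. NSD3 and PHF1, which rose past 2-fold in C4-2, had changes of -0.02 ± 0.10 and -0.11 ± 0.14 in the other line, and their line differences were 1.12 ± 0.12 and 1.77 ± 0.15 (adjusted p = 3.88e-08 and 1.67e-09). Without replicate 1 of the LNCaP combination, 34 members passed and 16 were past 2-fold, with SETDB1 no longer among them (0.97) and JARID2, CBX6, KMT2A and KMT2D added. For EED, MTF2 and KMT5A, the line difference did not pass (adjusted p = 0.0692, 0.243 and 0.832).

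**Figure D4:**
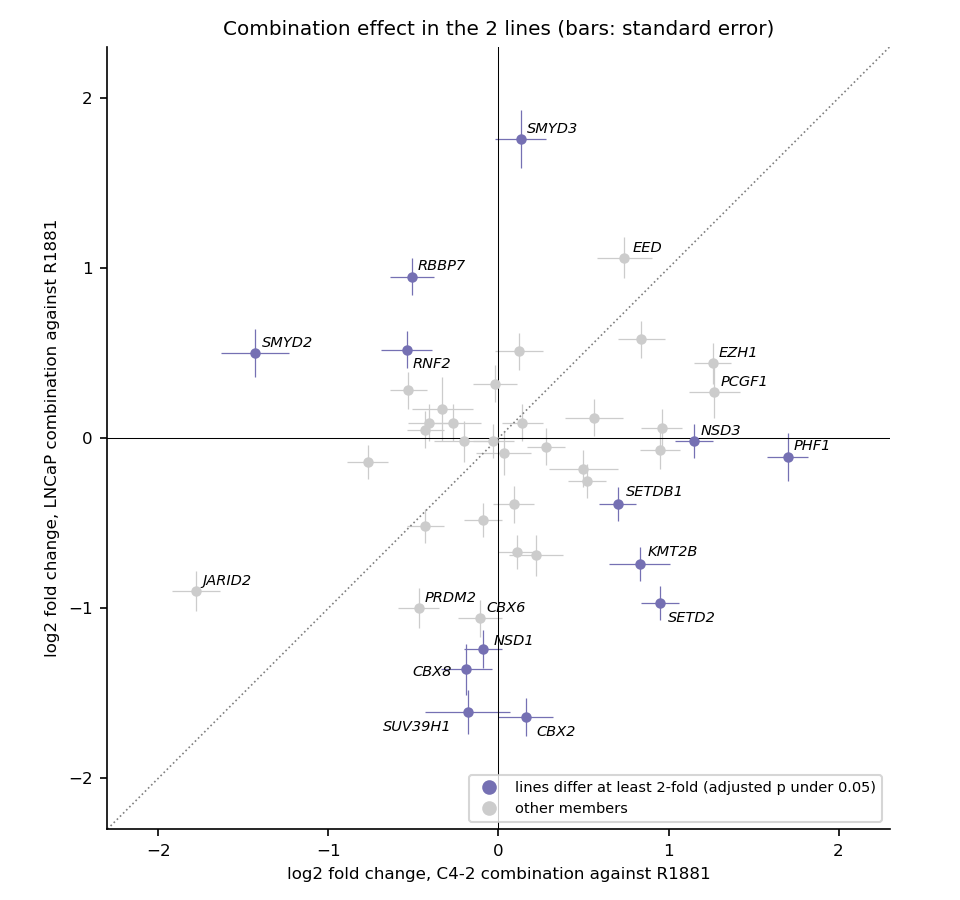
Log2 fold change with the combination against R1881 in C4-2 (horizontal axis) and in the libraries labelled LNCaP (vertical axis) for the 43 genes, with standard errors as bars and the 13 genes whose lines differed at least 2-fold in purple. The dotted line marks equal change. SETD2, KMT2B and SETDB1 lie at the lower right, RBBP7, RNF2 and SMYD2 at the upper left, and JARID2 at the lower left.

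The levels differed between the lines before treatment. With R1881 alone, 11 members were higher and 23 lower in C4-2 than in the libraries labelled LNCaP (37.8% and 39.0% of all genes), and 20 were past 2-fold (50.5% of all genes). The median difference of the members was -0.45, against 0 over all genes. SUV39H1, at 5.89 and 5.50 against 50.9 and 52.1 CPM, was lower by a log2 difference of -3.11 ± 0.15 (adjusted p = 4e-15). CBX2 (-2.37 ± 0.10), PHF19 (-2.36 ± 0.12) and PCGF6 (-2.24 ± 0.12) followed, and SETD2 (-1.87 ± 0.08), RBBP7 (-1.67 ± 0.09), NSD2 (-1.64 ± 0.08), CBX6 (-1.63 ± 0.10) and DOT1L (-1.62 ± 0.10) were also lower in C4-2. SMYD3 (1.74 ± 0.14), CBX7 (1.60 ± 0.15), KMT2C (1.38 ± 0.08) and KMT5B (1.11 ± 0.09) were higher in C4-2. All 20 replication genes (median -3.14) and 15 of the 20 mitosis genes (median -0.91) were lower in C4-2 in the same comparison. Their part in the differences of the members was not tested, and line and library set cannot be told apart. EZH2 did not pass, at 99.8 and 86.2 against 106 and 111 CPM (-0.17 ± 0.09, adjusted p = 0.0839).

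On the scale of CPM per kilobase, RING1 (38.94), RBBP4 (26.95) and SETD7 (24.79) had the highest levels of the 43 in C4-2 R1881 libraries, and SMYD2 (2.009), SUV39H1 (1.692) and PHF19 (1.351) the lowest. The order was different in the R1881 libraries labelled LNCaP, where RBBP4 (63.38), CBX6 (61.6) and RBBP7 (39.38) led. EZH2 was at 20.57 ± 2.13 (SD, n = 2) in C4-2 and overlapped SUZ12 (19.28 ± 1.45), its lower neighbour in the order, while BMI1 (22.92), the upper neighbour, lay above both EZH2 libraries. EZH1 was at 5.939 ± 0.178.

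Other genes of the same pathways, taken from 4 lists by function, were counted in the same fits. Of all genes tested in C4-2, 18.7% rose and 16.3% fell with namoline, and 19.9% and 16.7% with TCE-5002. With the combination, 24.8% rose and 25.6% fell in C4-2, and 28.0% and 28.2% in the libraries labelled LNCaP. Of 23 other Polycomb genes, 2 rose and 2 fell with namoline, 2 rose and 6 fell with TCE-5002, 10 rose and 3 fell with the combination in C4-2, and 3 rose and 9 fell in the libraries labelled LNCaP. EPOP, a PRC2 partner, rose with each inhibitor (1.22 ± 0.15 and 1.24 ± 0.15), and ASXL1, a subunit of the Polycomb deubiquitinase, rose with the combination in C4-2 (1.15 ± 0.11).

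Of 16 partners of the H3K4 writers, 5 rose and 3 fell with namoline, 2 rose and 2 fell with TCE-5002, 6 rose and 3 fell with the combination in C4-2, and 6 rose and 7 fell in the libraries labelled LNCaP. PAGR1, a subunit of the KMT2C and KMT2D complexes, fell with the combination in both (by 1.19 ± 0.27 and 1.52 ± 0.18). ASH2L, a core subunit of all KMT2 complexes, rose by 1.20 ± 0.11 in the libraries labelled LNCaP, where SETD1B, a further H3K4 methyltransferase, fell by 1.5 ± 0.12. Of 10 partners and readers of H3K9 methylation, 5 rose and 2 fell with namoline, 1 rose and 2 fell with TCE-5002, 3 rose and 3 fell with the combination in C4-2, and 6 rose and 1 fell in the libraries labelled LNCaP, where WIZ, a partner of EHMT1 and EHMT2, fell by 1.33 ± 0.12 and SETDB2 rose by 1.02 ± 0.13. Of 18 other methyltransferase genes and DOT1L partners that were tested, 4 rose and 3 fell with namoline, 3 fell and 15 did not pass with TCE-5002, 10 rose and 5 fell with the combination in C4-2, and 3 rose and 10 fell in the libraries labelled LNCaP. KMT5C, the paralogue of KMT5B, rose by 1.13 ± 0.23 with the combination in C4-2 and fell by 1.34 ± 0.14 in those labelled LNCaP (line difference 2.42 ± 0.18, adjusted p = 2.84e-10). MLLT3, a reader that binds DOT1L, fell by 1.38 ± 0.13 with the combination in C4-2.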

How the data were processed

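Total RNA was sequenced as paired, polyA-selected libraries, 12 in all. Per the labels, the authors trimmed reads with Trim Galore and cutadapt, checked them with FastQC and aligned them with STAR (versions not given in the sources used here). The deposited values are raw counts of read pairs per gene from featureCounts v1.5.0-p1 with an Ensembl release 83 annotation of GRCh38 and no strand option, so overlapping genes on opposite strands cannot be separated. Groups were taken from the sample titles, since the treatment protocol of the labels describes knockdown work. Replicates are biological per the study's methods, 2 a group.

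Counts were fitted in edgeR 4.0.16 (R 4.3.3) after filterByExpr and TMM scaling, for C4-2 (8 libraries, 17702 genes), the libraries labelled LNCaP (4 libraries, 17565 genes) and both lines (8 libraries, 19763 genes). Standard errors were obtained from the F statistic (log2 fold change divided by its root). Gene models without symbols were kept in the tests. Scripts were tested on simulated data. RefSeq promoter windows were matched by symbol.

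The 43 members and all lists were chosen with earlier results of these data known. Members past 2-fold, those with contrasting paralogues, and of each further list the 3 largest changes past 2-fold against R1881 were named. One result of a further list that this rule would name is not reported here. Alternatives were DESeq2 1.42.0, RLE size factors, a likelihood ratio test, all genes unfiltered, only the libraries compared, a GC correction, a replicate block, both together, and leaving out each library. No column of another sample was present.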

Additional observations from a re-analysis of the deposited data

Results flagged for a closer look

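The combination effect differed between C4-2 and the libraries labelled LNCaP past 2-fold in 13 of the 43 members, by the interaction of line and treatment in edgeR (adjusted p-values over 19763 genes, n = 2 libraries a group). Values are the log2 effect in C4-2 minus that in the libraries labelled LNCaP. The effect in C4-2 was the higher for SETD2 (1.87), PHF1 (1.77), CBX2 (1.75), KMT2B (1.52), SUV39H1 (1.38), NSD3 (1.12), CBX8 (1.11), NSD1 (1.1) and SETDB1 (1.04). It was the lower for SMYD2 (-1.98), SMYD3 (-1.68), RBBP7 (-1.51) and RNF2 (-1.11). Adjusted p-values ran from 1.21e-11 (SETD2) to 2.74e-05 (SUV39H1). With the GC correction, RNF2 and CBX8 fell below 2-fold, and PCGF5 and KMT2A went past it. KMT2B, SETD2, SETDB1, SMYD2, RBBP7 and RNF2 changed in opposite directions in the lines, each passed with all libraries. Leaving out a single library could lose SMYD2 in the libraries labelled LNCaP, and RBBP7 and RNF2 in C4-2. NSD3 and PHF1 passed in C4-2 alone. CBX2, CBX8, NSD1, SUV39H1 and SMYD3 passed in the libraries labelled LNCaP and not in C4-2. The lines also differed in the level of the members before treatment and in line markers, whose part in these differences was not tested.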

How the results depend on the processing

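Across all alternatives, only the values of members that had passed in the main fit of a comparison were followed. Of these, 3467 kept their direction and still passed, 273 kept their direction but no longer passed, and none reversed. Members that passed only in an alternative are not in these counts, and the direction of values that did not pass was not followed. Of the counts of members, 261 stayed within 1.5 times the value given above and 13 moved by more, all 13 of them for either inhibitor alone, the C4-2 combination or the libraries labelled LNCaP. With the GC correction alone, 24 members passed with namoline, 25 with TCE-5002 and 28 with the combination in C4-2. In the libraries labelled LNCaP, 33 passed (26 without it), and more of all genes passed each time as well. Alone and with the replicate block, it left 1 member past 2-fold with namoline in place of 2. In the libraries labelled LNCaP, it took EED and CBX6 below 2-fold and SETD2 past it. KMT2A and SETD2 went past 2-fold with the combination in C4-2. In the interaction of the inhibitors, it lost PCGF5 and KMT5B and added RBBP4, RING1, KMT2B and KMT2D. As each library was left out in turn, members that passed ranged from 7 to 24 with namoline (18 with all libraries), 5 to 22 with TCE-5002 (17) and 16 to 27 with the combination in C4-2 (25). Those past 2-fold ranged from 1 to 2 with namoline, 0 to 2 with TCE-5002, and 5 to 9 in the libraries labelled LNCaP (8). Fewer libraries were fitted in these, and the cause was not tested. The TCE-5002 replicates were the least even pair, with a rank correlation of -0.631 between their difference and transcript GC content, and 0.452 in the LNCaP combination pair.

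Same-numbered libraries deviated together little (correlation of the replicate differences -0.0159 to 0.195 for C4-2, 0.0106 for the line labelled LNCaP). The numbers were not used as pairs in the main fits, although low correlations cannot show that no pairing existed. With the replicate block, 20 members passed with namoline, 20 with TCE-5002, 25 with the combination and 26 in the libraries labelled LNCaP, where PRDM2 was no longer past 2-fold (7 in place of 8).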
